A study of Mus musculus with 6 samples.

Results

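A set of 10 genes of renal phosphate, klotho and vitamin D handling was followed in mouse renal cortex: Kl, Fgfr1, Slc34a1, Slc34a3, Slc20a1, Slc20a2, Pth1r, Cyp27b1, Cyp24a1 and Vdr. They were chosen by gene symbol, with earlier results of these data known. In the expression table, 10 of the 10 were found among the 19176 rows (19166 different symbols). All libraries came from wild-type male C57BL/6J mice, 8 weeks of age, whose left renal pedicle had been clamped and released, which is unilateral ischemia-reperfusion injury (UIRI). The UIRI group received vehicle and the UIRI + BA group received bruceine A (BA), a quassinoid named brucine A in the sample labels, at 1 mg/kg by daily intraperitoneal injection. The uninjured right kidney was removed the day before tissue was taken, and the cortex was collected on day 14 from 3 biological replicates of each group, with 1 library each. No sham kidney was analysed here, so the values compare injured cortex with and without BA.

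Klotho, the product of Kl, is a membrane protein made mainly by the distal tubule and is the co-receptor that lets the bone hormone FGF23 act through FGFR1. FGF23 and parathyroid hormone (PTH) both make the proximal tubule take up less phosphate, chiefly by withdrawing the sodium-phosphate cotransporters NaPi-IIa (Slc34a1) and NaPi-IIc (Slc34a3) from the brush border. FGF23 also lowers Cyp27b1, the enzyme that makes active vitamin D, and raises Cyp24a1, the enzyme that breaks it down, whereas active vitamin D acts through its receptor, Vdr. Loss of klotho and of proximal tubule transporters is a known feature of injured and fibrotic kidneys.

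The libraries held 16510720 to 38124164 reads on genes. The deepest, UIRI replicate 3, had 2.04 times the median of the other 5, and it lay nearer to the UIRI + BA libraries than the other UIRI libraries did for several of the genes below. Proximal tubule markers moved with the treatment groups: 14 of the 15 listed genes were higher in UIRI + BA at an unadjusted p below 0.05. Over all rows, 10.3% met that threshold in either direction and 5.67% as higher in UIRI + BA. The summed normalized count of the 15 markers was 43506 to 66951 in UIRI against 73628 to 90185 in UIRI + BA. Their mean log2 level was 10.19, 10.22 and 10.95 in UIRI replicates 1 to 3 against 11.22, 11.02 and 11.27 in UIRI + BA. Markers of the distal convoluted tubule (5 measured, Pvalb not being in the table), thick limb (6) and endothelium (7) had 0 genes below that threshold, and those of the collecting duct (10), podocytes (7) and leukocytes (8) had 1 each, lower in UIRI + BA. Of 10 injured tubule genes, 3 were higher and 3 lower. Urothelium markers set replicate 3 of each group apart: their mean log2 level was 6.18 in UIRI replicate 3 and 5.36 in UIRI + BA replicate 3 against 1.58 to 4.19 in the other 4 libraries, and all 6 had lower means in UIRI + BA (median log2 difference -2.01) with 0 below the threshold. Their part in the values below was not tested. Fibroblast markers were lower for 5 of 8 genes at that threshold, with a summed count of 94001 to 112700 in UIRI against 69505 to 91642 in UIRI + BA. In bulk cortex, fewer cells of a type and less RNA per cell cannot be told apart.

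None of the 10 genes passed the threshold of an adjusted p below 0.05 in limma, at which 0% of all 19176 rows were called. At an unadjusted p below 0.05, 4 of the 10 (Vdr, Slc34a1, Slc34a3 and Kl) were higher in UIRI + BA, against 10.3% of all rows in either direction and 5.67% in that direction. Their fitted differences ran from 1.44-fold for Vdr and Slc34a1 to 2.63-fold for Slc34a3. Only Vdr and Slc34a1 had no overlap between the groups, which 14.4% of all rows also showed. DESeq2 on the recovered reads called Vdr and Slc34a1 at an adjusted p below 0.05 (1.49% of the 14340 genes it adjusted), and edgeR's quasi-likelihood test called 0 of the 10 (0% of 17155 genes tested), with 4 at an unadjusted p below 0.05. Over all 10 genes, 8 had a higher and 2 a lower mean log2 level in UIRI + BA, beside 48.9% of all rows that were higher. The median log2 difference of the 10 was 0.34 beside -0.0053 for all rows. As the set was chosen with earlier results of these data known, its shares beside those of all rows are a description.

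**Figure D1:**
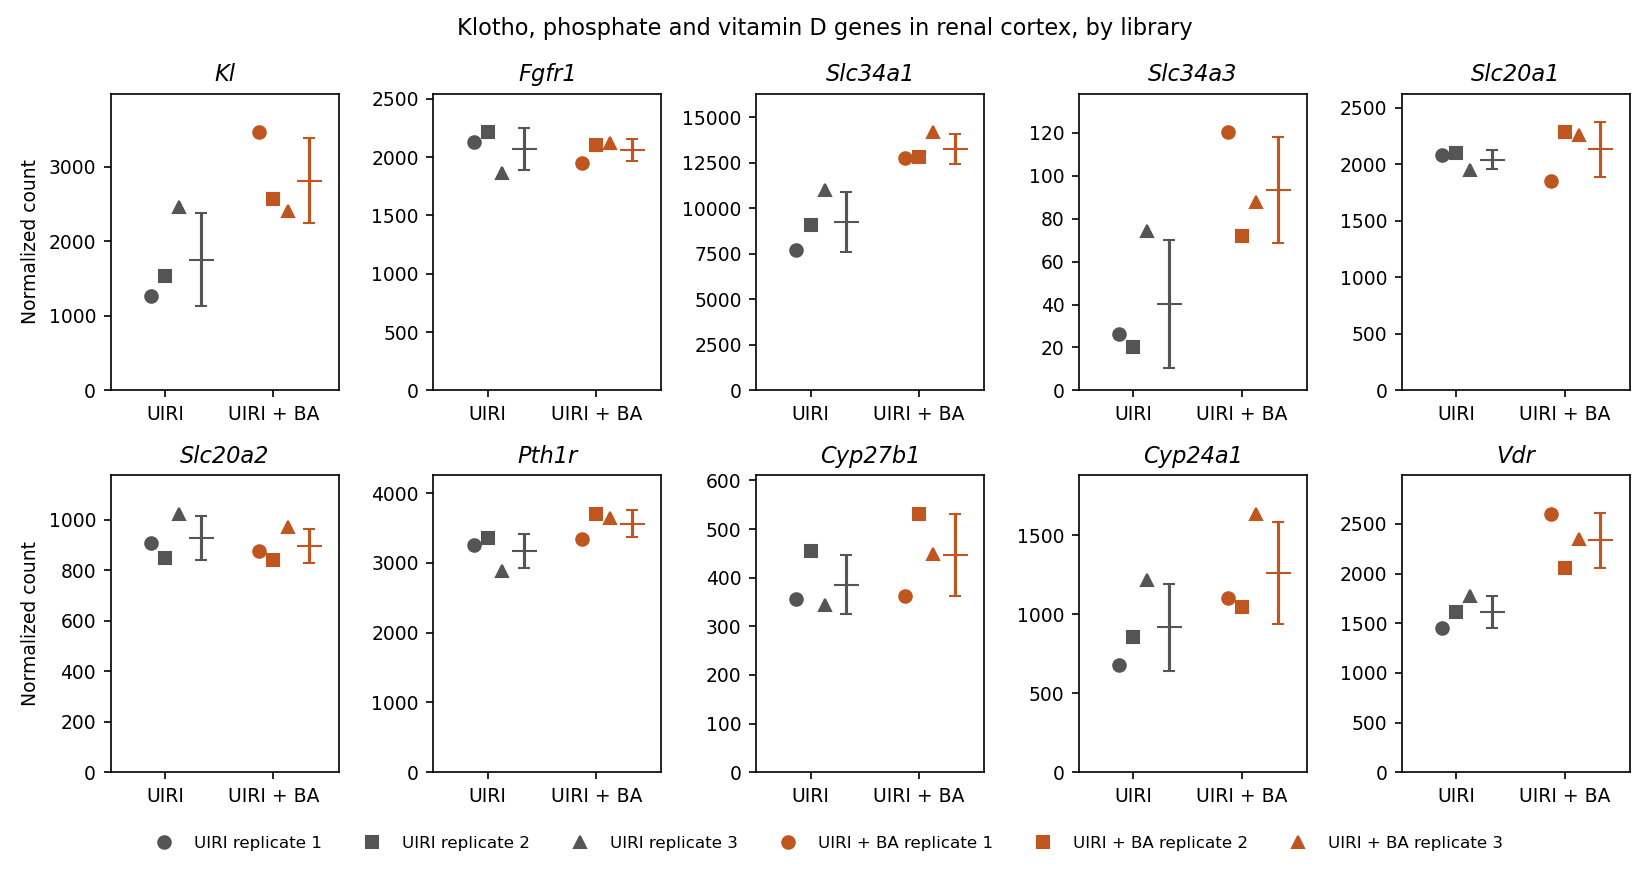
Normalized count (count divided by the library's size factor) of each of the 10 genes in the 3 UIRI and 3 UIRI + BA libraries, with the group mean and SD beside the points; each vertical axis starts at 0. Vdr and Slc34a1 separate the groups, and UIRI replicate 3 (grey triangle) is the highest UIRI library for Kl, Slc34a1, Slc34a3, Slc20a2, Cyp24a1 and Vdr.

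Kl (chr5:150952607-150993817, plus strand, GRCm38) had 1268, 1534 and 2459 normalized counts in UIRI replicates 1 to 3 against 3461, 2568 and 2409 in UIRI + BA replicates 1 to 3. The groups overlapped through a single pair, UIRI replicate 3 standing just above UIRI + BA replicate 3. The mean was 1754 ± 625 in UIRI against 2813 ± 567 in UIRI + BA (SD, n = 3 each). The log2 difference was 0.72 with a standard error of 0.23 and a 95% interval of 0.21 to 1.23 (limma, adjusted p = 0.368). Without UIRI + BA replicate 1, the highest library, the difference was 0.56 and no longer below an unadjusted p of 0.05. Without UIRI replicate 3 it was 0.99 with an adjusted p of 0.0125, in a fit that called 5.02% of all rows. That adjusted p was the lowest of 14 alternatives, the highest being 0.9995 without UIRI replicate 1. With UIRI replicate 3 thinned to the depth of the other libraries the difference was 0.71.

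Fgfr1 (chr8:25513654-25575718, plus strand), the receptor that klotho turns into an FGF23 receptor, had 2129, 2212 and 1864 normalized counts in UIRI against 1951, 2102 and 2119 in UIRI + BA. The 6 libraries were interleaved. Its log2 difference was -0.0049, with a 95% interval of -0.20 to 0.19 and an adjusted p of 0.987 by limma, so that changes beyond about 1.14-fold up or 0.87-fold down lie outside the interval. Per kb of exon, the ratio of Kl to Fgfr1 was 0.63, 0.73 and 1.40 in UIRI against 1.88, 1.29 and 1.2 in UIRI + BA. By this measure Kl was the lower of the pair in UIRI replicates 1 and 2 and the higher in the other 4 libraries. The exon lengths are approximate, so which gene is the higher is not settled. In bulk cortex the ratio does not show both genes in the same cells.

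Slc34a1 (chr13:55398187-55415592, plus strand), the main phosphate transporter of the brush border, had 7708, 9085 and 10995 normalized counts in UIRI against 12758, 12832 and 14182 in UIRI + BA. Every UIRI + BA library was above every UIRI library. The means were 9263 ± 1651 and 13257 ± 802 (SD, n = 3 each), and the log2 difference was 0.53 with a standard error of 0.12 and a 95% interval of 0.25 to 0.81 (limma, adjusted p = 0.260). DESeq2 gave an adjusted p of 0.0127, and limma without UIRI replicate 3 gave 0.0111 at a log2 difference of 0.66, where 5.02% of all rows were called; across the 14 alternatives the adjusted p ran from 0.0111 to 0.9995. The 3 versus 3 design allows no exact permutation p below 0.1, and Slc34a1 had that p.

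Slc34a3 (chr2:25228898-25234364, minus strand), the second brush border transporter, was the rarest of the 10, with 18 to 136 reads in a library. Its normalized counts were 26.1, 20.2 and 74.5 in UIRI against 120, 72.2 and 87.7 in UIRI + BA. UIRI replicate 3 stood among the UIRI + BA libraries, whereas UIRI replicates 1 and 2 were well below all of the others. The log2 difference was 1.39 with a standard error of 0.43 and a 95% interval of 0.43 to 2.36 (limma, adjusted p = 0.361), the widest interval among the 10 genes. Without UIRI replicate 3 the difference was 1.94 with an adjusted p of 0.0102, in a fit that called 5.02% of all rows. The difference was 1.03 without UIRI replicate 2. Across the 14 alternatives the adjusted p ran from 0.0102 to 0.9995, and only 1 was below 0.05. On the recovered reads, DESeq2 gave a smaller log2 difference of 1.17 and edgeR one of 1.10.

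The transporters of the other phosphate carrier family gave smaller differences. Slc20a1 (chr2:129198764-129211616, plus strand), which encodes PiT-1, a widely expressed sodium-phosphate transporter, had 2078, 2098 and 1948 normalized counts in UIRI against 1849, 2283 and 2262 in UIRI + BA. The UIRI libraries lay inside the range of the UIRI + BA libraries, with a log2 difference of 0.06 and a 95% interval of -0.16 to 0.27 (limma, adjusted p = 0.842). Slc20a2 (chr8:22476788-22569612, plus strand), which encodes PiT-2, had 910, 850 and 1023 in UIRI against 874, 840 and 970 in UIRI + BA. Its groups overlapped almost fully, with a log2 difference of -0.05 and a 95% interval of -0.27 to 0.17 (limma, adjusted p = 0.864). Per kb of exon, Slc34a1 was 4.43, 5.17 and 6.74 times Slc20a1 in UIRI against 8.23, 6.71 and 7.48 times in UIRI + BA, so only UIRI replicate 3 reached the UIRI + BA range.

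Pth1r (chr9:110722085-110747145, minus strand), the receptor for PTH on tubule cells, had 3261, 3359 and 2890 normalized counts in UIRI against 3347, 3703 and 3642 in UIRI + BA. UIRI replicate 2 and UIRI + BA replicate 1 were nearly level, and UIRI replicate 3 was the lowest of the 6, unlike its place for Slc34a1 or Kl. The log2 difference was 0.17, with a 95% interval of -0.02 to 0.36 (limma, adjusted p = 0.519). Leaving out UIRI + BA replicate 1 gave 0.22, which was below an unadjusted p of 0.05.

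Cyp27b1 (chr10:127048250-127053006, plus strand), the 1-alpha-hydroxylase that makes active vitamin D, had 357, 456 and 344 normalized counts in UIRI against 362, 531 and 449 in UIRI + BA. Both groups held a library near 360, and the highest of the 6 was UIRI + BA replicate 2. The log2 difference was 0.21, with a 95% interval of -0.15 to 0.57 (limma, adjusted p = 0.651). Cyp24a1 (chr2:170482708-170497145, minus strand), the 24-hydroxylase that inactivates vitamin D and is itself a classic vitamin D target, had 675, 855 and 1219 in UIRI against 1104, 1044 and 1634 in UIRI + BA. UIRI replicate 3 was above UIRI + BA replicates 1 and 2, and the highest library was UIRI + BA replicate 3.

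The log2 difference of Cyp24a1 was 0.47, with a 95% interval of -0.03 to 0.98 (limma, adjusted p = 0.509). This value moved with single libraries: it was 0.70 (limma, adjusted p = 0.0564) without UIRI replicate 3, and 0.27 without UIRI replicate 1 and again without UIRI + BA replicate 3. Leaving out UIRI replicate 3 or UIRI + BA replicate 2 (0.59), adding the replicate number as a block (adjusted p = 0.145) or using DESeq2 brought its unadjusted p below 0.05, and the adjusted p ran from 0.0564 to 0.9995 over the 14 alternatives. The ratio of Cyp24a1 to Cyp27b1 per kb of exon was 1.37, 1.36 and 2.56 in UIRI against 2.20, 1.42 and 2.63 in UIRI + BA. Cyp24a1 was the higher of the pair in all 6 libraries, and the log2 ratio differed by 0.26 between the groups (exact two-sided permutation p = 0.5).

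Vdr (chr15:97854425-97910630, minus strand), the nuclear receptor for active vitamin D, had 1456, 1608 and 1778 normalized counts in UIRI against 2601, 2053 and 2349 in UIRI + BA. The lowest UIRI + BA library was above the highest UIRI library. Means were 1614 ± 161 and 2334 ± 274 (SD, n = 3 each), with a log2 difference of 0.53, a standard error of 0.11 and a 95% interval of 0.29 to 0.77 (limma, adjusted p = 0.225). Vdr had the smallest p of the 10 genes and ranked 62 among all 19176 rows. Its log2 difference stayed between 0.45 and 0.62 and its unadjusted p below 0.05 in all 14 alternatives, and its adjusted p ran from 0.00507 with DESeq2 to 0.9995, with 0.0188 without UIRI replicate 3.

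**Figure D2:**
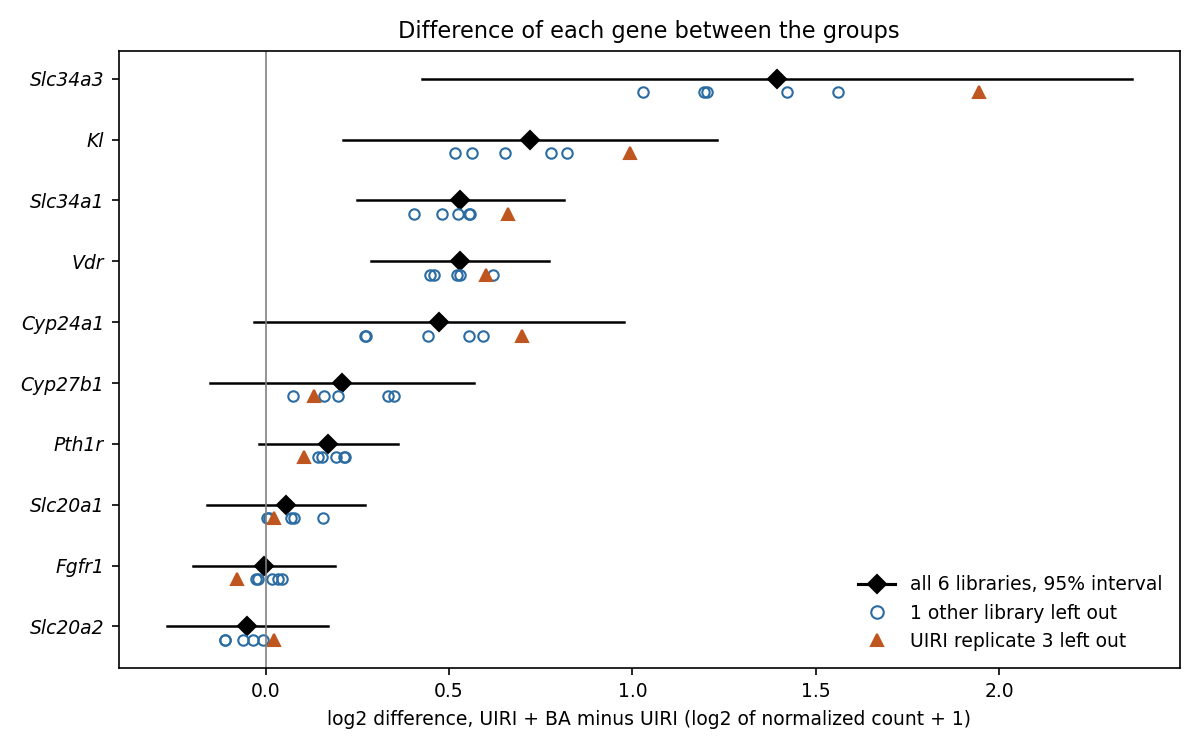
Log2 difference (UIRI + BA minus UIRI, on log2 of the normalized count plus 1) of each of the 10 genes with its 95% limma interval over all 6 libraries (diamond and line), and with each library left out in turn (circles; triangle for UIRI replicate 3). The intervals of Slc34a3, Kl, Slc34a1 and Vdr lie above 0, and leaving out UIRI replicate 3 moves Kl to 0.99 and Slc34a3 to 1.94.

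The sequences upstream of Kl, Slc34a1 and Vdr are shown because these 3 of the 4 genes with an unadjusted p below 0.05 have a RefSeq start with mostly unannotated sequence before it, which Slc34a3 does not. RefSeq windows (GRCm38.p6) were held for 7 of the 10 genes, and the 250 bases before each start were read 5′ to 3′ on the gene's strand. Capitals mark, on either strand, the HNF1 half-site GTTAAT, a nuclear receptor half-site (AGGTCA, its relative AGTTCA, and the forms of either that begin with G) and the GC box GGGCGG. The first window is chr5:150952357-150952606 (plus strand), the next chr13:55399398-55399647 (plus strand) and the last chr15:97908311-97908546 (minus strand, ending 14 bases short of the start, where annotated exon begins).
Kl: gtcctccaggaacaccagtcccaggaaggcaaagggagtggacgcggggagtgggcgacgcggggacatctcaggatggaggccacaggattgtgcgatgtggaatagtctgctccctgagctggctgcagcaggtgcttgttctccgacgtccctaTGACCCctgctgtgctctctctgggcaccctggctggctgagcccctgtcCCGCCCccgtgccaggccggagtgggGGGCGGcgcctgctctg
Slc34a1: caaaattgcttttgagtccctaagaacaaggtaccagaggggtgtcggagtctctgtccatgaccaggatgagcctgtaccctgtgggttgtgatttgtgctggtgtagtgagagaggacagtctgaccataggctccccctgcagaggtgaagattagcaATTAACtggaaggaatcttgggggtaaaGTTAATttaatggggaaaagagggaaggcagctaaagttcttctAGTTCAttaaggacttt
Vdr: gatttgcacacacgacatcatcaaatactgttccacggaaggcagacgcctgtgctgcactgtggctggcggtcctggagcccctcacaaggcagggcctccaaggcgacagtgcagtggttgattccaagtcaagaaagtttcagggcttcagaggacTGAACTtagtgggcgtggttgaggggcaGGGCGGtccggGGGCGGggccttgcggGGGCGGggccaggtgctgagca
The Slc34a1 window had 46.4% GC with 1 CpG, whereas the Kl and Vdr windows had 66.8% with 13 CpG and 61.2% with 11, beside a median of 52.4% and 6 over the 32851 windows of all genes. Among the 7 genes with a window, Slc34a1 alone held GTTAAT, at bases -89 and -61 from the start, and 6.43% of all windows held it. GC boxes stood at -43 and -17 before Kl and at -63, -52 and -36 before Vdr (32.7% of all windows held one). A receptor half-site stood at -93 before Kl, -17 before Slc34a1 and -91 before Vdr, which 38.6% of all windows also showed. The full DR3 element that Vdr binds with its partner RXR, a pair of half-sites 3 bases apart, was in 0 of the 10 member windows and in 0.0396% of all windows. These matches describe letters in a window and were not tested for binding.

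Set per kb of exon, so that genes can be compared, the levels spanned a wide range. Slc34a1 came first with a mean of 2408 normalized counts per kb over the 6 libraries, followed by Pth1r with 1151. Slc20a1 (374), Vdr (349), Cyp24a1 (306), Kl (245), Fgfr1 (209), Cyp27b1 (162) and Slc20a2 (147) came next in that order, and Slc34a3 (28.3) was last. Neighbours in this order overlapped over the libraries except at 3 steps. Slc34a1 was 2.09 times Pth1r, Pth1r was 3.08 times Slc20a1 and Slc20a2 was 5.17 times Slc34a3, each without overlap. The excess of Slc34a1 over Slc34a3 was 149, 226 and 74.4 times in UIRI against 53.5, 89.7 and 81.6 times in UIRI + BA. It was largest in UIRI replicates 1 and 2, the libraries with the fewest Slc34a3 reads. Slc20a1 was 2.12 to 3.03 times Slc20a2, with the groups overlapping.

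**Figure D3:**
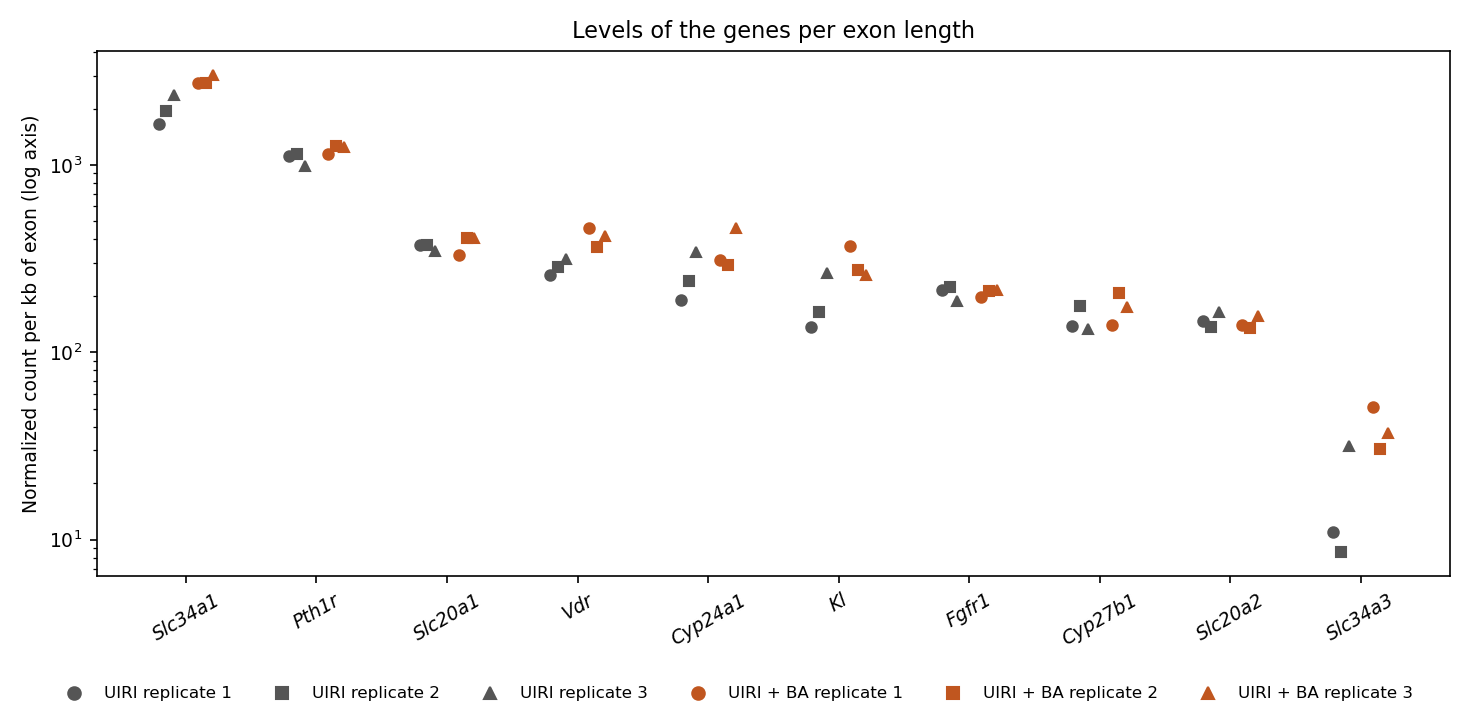
Level of each gene in normalized counts per kb of annotated exon (log axis) in the 6 libraries, in descending order of the mean. Slc34a1 is highest in every library, with a mean of 2408, and Slc34a3 lowest, with a mean of 28.3.

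The 5 lists of other genes of these systems held 55 genes, of which 49 were measured; Fgf23, Klb, Dmp1, Pth, Rxrg and Kcna1 were not in the table. None passed an adjusted p below 0.05 in limma or edgeR, 4 did in DESeq2 (Pdzk1, Lrp2, Cubn and Gc; 1.49% of all genes it adjusted), and 9 of the 49 (18.4%) had an unadjusted p below 0.05, 7 higher and 2 lower in UIRI + BA, beside 10.3% of all rows. Their median log2 difference was 0.07. No overlap between the groups was seen for 3 of 8 phosphate transport partners, 1 of 11 klotho and FGF23 genes and 3 of 7 PTH and calcium sensing genes. It was also seen for 4 of 11 vitamin D genes and 0 of 12 distal transport genes, beside 14.4% of all rows. Without overlap but not below an unadjusted p of 0.05 were Enpp1, Phex and Pthlh, lower in UIRI + BA, and Cyp2r1, higher.

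Among 8 partners of phosphate transport, 2 had an unadjusted p below 0.05. Pdzk1, a scaffold that holds transporters at the brush border, had 1047, 1247 and 1706 normalized counts in UIRI against 2424, 1708 and 2619 in UIRI + BA, a log2 difference of 0.76 (limma, adjusted p = 0.291). Slc9a3r1, which encodes NHERF1, the scaffold that anchors NaPi-IIa and links it to the PTH receptor, had 2307, 2446 and 2421 against 2776, 2919 and 2923, a log2 difference of 0.26 (limma, adjusted p = 0.291). In both genes the lowest UIRI + BA library was above the highest UIRI library, for Pdzk1 by less than 2 normalized counts.

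Of 11 measured genes of klotho and FGF23 signaling, 1 had an unadjusted p below 0.05. This was Fgfr4, another FGF receptor of the tubule, with 474, 552 and 441 normalized counts in UIRI against 551, 611 and 629 in UIRI + BA, a log2 difference of 0.29 (limma, adjusted p = 0.441), and its groups met at 552 and 551.

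Of 7 measured genes of PTH and calcium sensing, Calcr, the calcitonin receptor, had 174, 165 and 164 against 179, 224 and 218 normalized counts, a log2 difference of 0.29 (limma, adjusted p = 0.484). Pth2r, which encodes a second receptor of the PTH family, was lower in UIRI + BA, with 7.93, 9.0 and 9.31 against 2.51, 5.38 and 4.17, a log2 difference of -0.997 (limma, adjusted p = 0.460). These are a few reads per library. Neither gene overlapped between the groups.

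Of 11 measured genes of vitamin D uptake and metabolism, 3 had an unadjusted p below 0.05, all higher in UIRI + BA and all without overlap. Lrp2, which encodes megalin, the receptor that takes filtered vitamin D and its carrier into the proximal tubule, had 2912, 3608 and 5119 normalized counts in UIRI against 7005, 5484 and 7057 in UIRI + BA, a log2 difference of 0.78 (limma, adjusted p = 0.263). Cubn, which encodes cubilin, its partner in that uptake, had 734, 908 and 1246 against 1675, 1288 and 1702, a log2 difference of 0.71 (limma, adjusted p = 0.291). For Gc, the vitamin D binding protein itself, the counts were 1476, 1906 and 1832 against 2112, 2548 and 2713, a log2 difference of 0.50 (limma, adjusted p = 0.271). Lrp2, Cubn, Gc and Pdzk1 are chiefly proximal tubule genes in the kidney, and the part of the higher proximal tubule markers in their values was not tested. The list as a whole had the highest median of the 5, 0.21.

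Of 12 measured genes of distal calcium and magnesium transport, 1 had an unadjusted p below 0.05. Trpv6, an apical calcium channel and a known vitamin D target, had 222, 170 and 222 normalized counts in UIRI against 140, 183 and 144 in UIRI + BA, a log2 difference of -0.39 (limma, adjusted p = 0.466), with UIRI + BA replicate 2 above UIRI replicate 2. The median of that list was 0.09. With UIRI replicate 3 left out, limma gave 6 of the 49 genes an adjusted p below 0.05, in a fit that called 5.02% of all rows: 2 partners of phosphate transport, 1 gene of FGF23 signaling and 3 of vitamin D uptake.

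**Figure D4:**
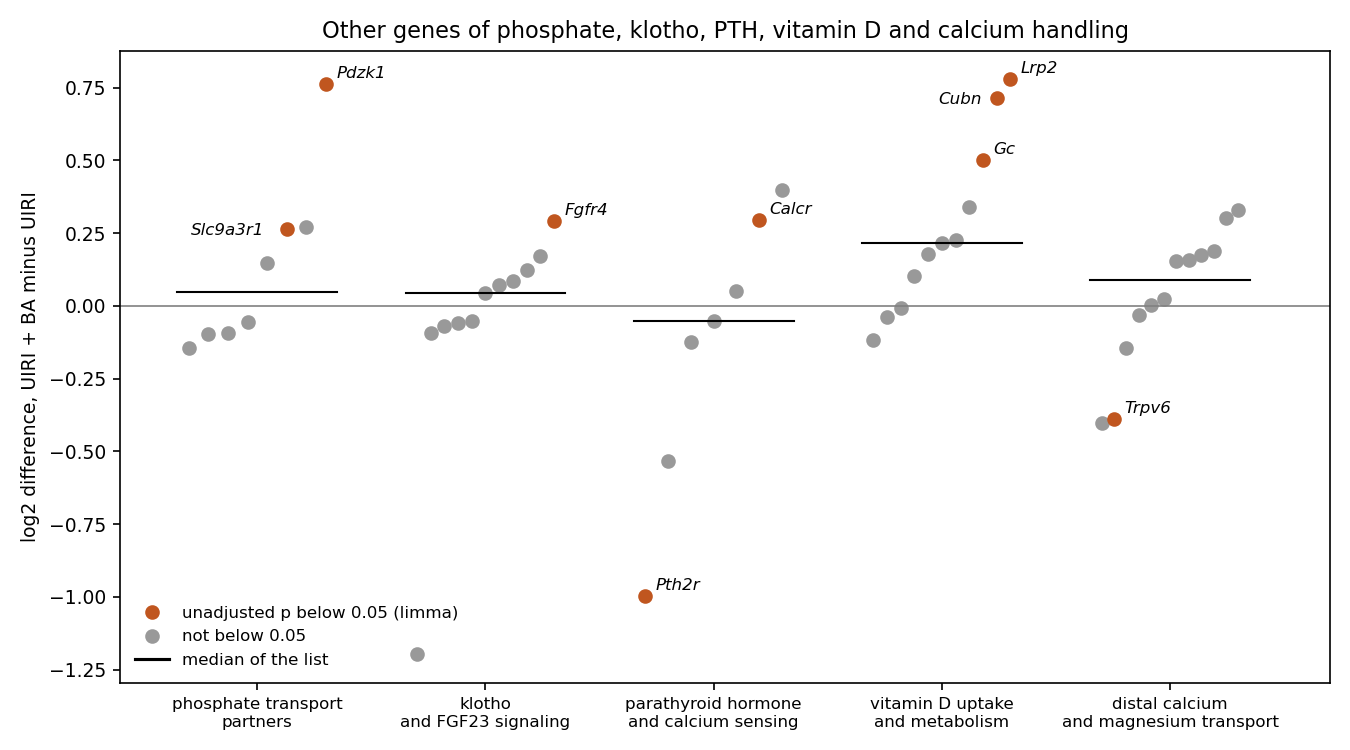
Log2 difference (UIRI + BA minus UIRI) of the 49 measured genes in 5 lists around phosphate, klotho, PTH, vitamin D and distal calcium handling, with the list median as a line. The 9 named genes had an unadjusted p below 0.05 in limma, and the vitamin D list has the highest median, 0.21.

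Because proximal tubule and fibroblast markers differed between the groups, the genes were also set against markers of a cell type in which they are made, as the log2 level minus the mean log2 level of those markers, in 9 comparisons with exact two-sided permutation tests adjusted together. Slc34a1 minus the 15 proximal tubule markers was 2.72, 2.93 and 2.48 in UIRI against 2.42, 2.62 and 2.52 in UIRI + BA. The difference was -0.19 (exact permutation p = 0.3), so the mean of Slc34a1 beside these markers was not higher in UIRI + BA. Pth1r (-0.55), Cyp27b1 (-0.51) and Cyp24a1 (-0.25) also had lower means beside those markers in UIRI + BA, and Slc34a3 a higher one (0.68), each with overlap and an exact permutation p of 0.3.

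Kl minus the 5 distal convoluted tubule markers was 0.23, 0.41 and 0.85 in UIRI against 1.04, 0.82 and 1.16 in UIRI + BA, a difference of 0.51 (exact permutation p = 0.2) with UIRI replicate 3 just above UIRI + BA replicate 2. For Vdr beside the same markers the values were 0.43, 0.48 and 0.39 in UIRI against 0.63, 0.50 and 1.12 in UIRI + BA, a difference of 0.32 without overlap (exact permutation p = 0.1, the smallest this design can give). Vdr is made in proximal as well as distal tubule, and both genes were also set beside the 15 proximal tubule markers, a comparison added after the data were seen. There Vdr had 0.32, 0.43 and -0.15 in UIRI against 0.12, -0.02 and -0.07 in UIRI + BA, a difference of -0.19 with overlap (exact permutation p = 0.4), so its direction turned with the reference. Kl differed by 0.0029 beside the proximal tubule markers (exact permutation p = 1). Fgfr1 minus the 8 fibroblast markers differed by 0.35 (exact permutation p = 0.2). The adjusted p was 0.338 for 8 of the 9 comparisons and 0.5 for the ratio of Cyp24a1 to Cyp27b1 given above.

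**Figure D5:**
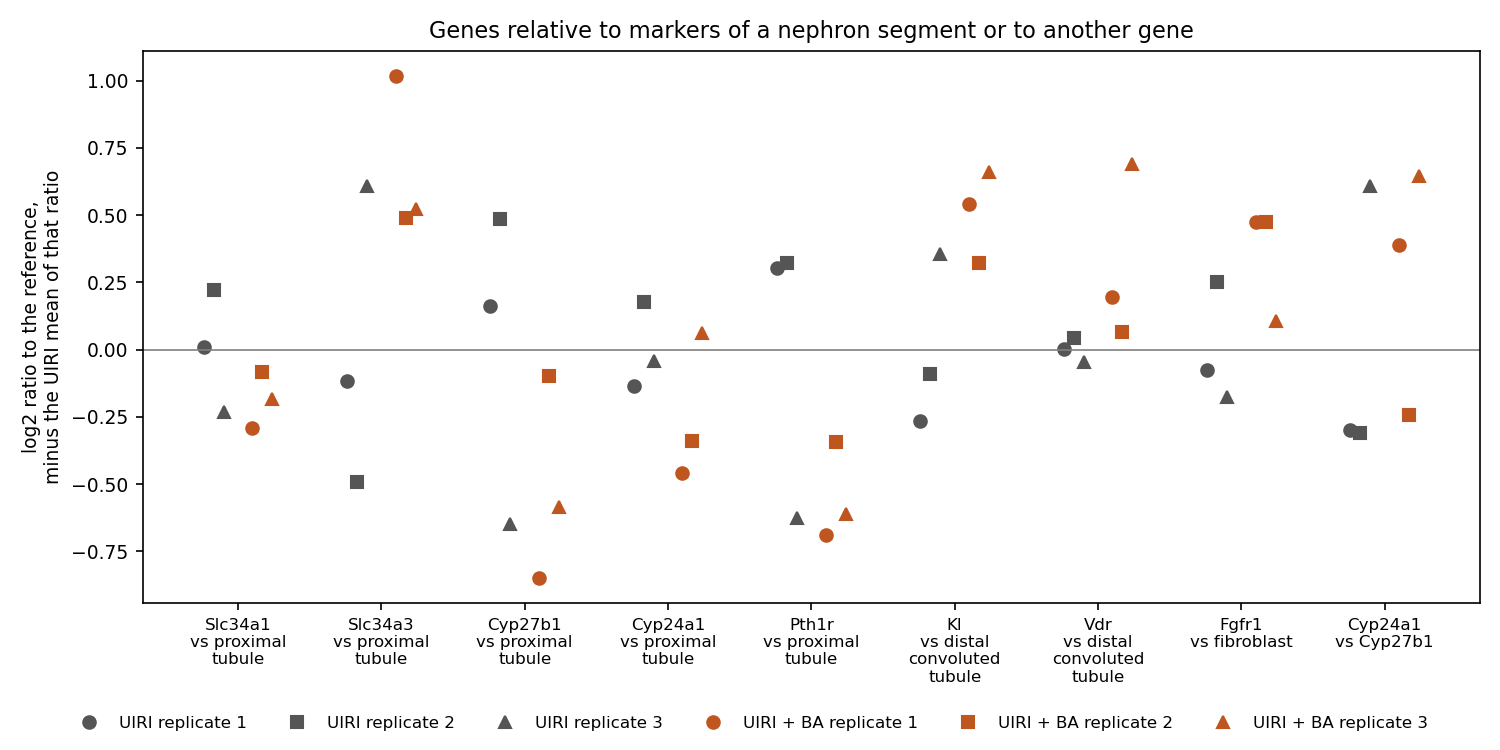
Log2 ratio of each gene to the mean of the markers of a nephron segment or cell type, or to another gene, in the 6 libraries, set to the UIRI mean of that ratio (0 on the vertical axis). Vdr beside distal convoluted tubule markers separates the groups, by 0.32 on average, and the other 8 ratios overlap. That difference was 0.13 without UIRI + BA replicate 3, and -0.19 with overlap beside proximal tubule markers (neither drawn).

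The 5 genes whose levels ran most like Kl over the 6 libraries, among the 12647 genes averaging at least 100 normalized counts, were Fem1c (Pearson r of log2 levels 0.997), Car12 (0.996), Nsd3 (0.995), Usp37 (0.995) and Sgms2 (0.995). The 6 points share the same libraries and treatment groups, so the coefficients are a description. Car12, a membrane carbonic anhydrase, had 1244, 1368 and 1850 normalized counts in UIRI against 2163, 1896 and 1757 in UIRI + BA, which puts the libraries in the same order as Kl, from UIRI replicate 1 at the bottom to UIRI + BA replicate 1 at the top. Fem1c, a substrate receptor of a ubiquitin ligase, spanned only 1540 to 1878 normalized counts over the libraries in which Kl spanned 1268 to 3461.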

How the data were processed

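RNA-seq of renal cortex was analysed in 6 libraries, 3 UIRI and 3 UIRI + BA, grouped by their labels. The replicates are described as biological. The p-values set the difference between the groups against the spread between these samples, which limma moderates over all rows. Per the study's methods, the authors used HISAT2 for alignment, FeatureCounts for counting and DESeq2 for testing; the genome build, the annotation and the strand setting of the counting are not given in the sources used here, while the labels name a strand-specific oligo(dT) library kit. The deposited signal of each gene in each library is its read count over a library size factor, although the methods name FPKM. In every library 100% of the values were whole multiples of 1 step (within 0.01 of a read), so reads were recovered by dividing. Each row has at least 10 reads over the 6 libraries. The deposited log2 fold changes, p-values and enrichment tables hold the authors' own comparisons and were not used.

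The test was limma 3.58.1 (R 4.3.3) on log2 of the value plus 1, with an intensity trend, all 19176 rows, no covariate and Benjamini-Hochberg adjustment. Fold changes are on that scale, where the pseudocount shrinks those of low genes. For Slc34a3, the rarest member, the log2 difference was 1.39, against 1.42 with a pseudocount of 0.1. DESeq2 and edgeR gave Slc34a3 smaller values, 1.17 and 1.10, so its limma value is not a lower bound. The alternatives on recovered reads were DESeq2 1.42.0 and edgeR 4.0.16 (quasi-likelihood), beside quantile normalization, upper quartile scaling, a replicate block, a pseudocount of 0.1, a minimum value of 1 in all 6 libraries, thinning of UIRI replicate 3 to the others' median depth, and each library left out in turn. As a check of the code, limma, DESeq2 and edgeR were also run on simulated data, with larger changes than most of those reported here. That check does not measure power or error rates for these genes. Single values were compared with exact two-sided permutation tests (scipy 1.17.1). Same-numbered libraries correlated at -0.24, 0.30 and 0.15, so the numbers were not taken as pairs.

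The genes, the 5 pathway lists and the 10 cell type lists (proximal, injured and distal convoluted tubule, thick limb, collecting duct, podocyte, endothelium, fibroblast, leukocyte, urothelium) were chosen with earlier results of these data known. The text names the 10 genes, list genes with an unadjusted p below 0.05 or without overlap between the groups, and the 5 genes most like Kl. Gene positions and exon lengths are from GENCODE M21 (GRCm38), which may not be the annotation the authors counted on, so levels per kb are approximate. Exons of any single other gene, on the opposite strand, share at most 11.7% of a member's exon bases (Slc34a1 with Pfn3). Slc20a1 shares 8.10% with 9830144P21Rik and 5.02% with Gm4430. The reads of such stretches cannot be told apart where counting ignored strand. Libraries held 16510720 to 38124164 reads on genes. Counting error and the spread between libraries were not separated; with 3 libraries per group, the spread between libraries enters every interval.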

Additional observations from a re-analysis of the deposited data

How the results depend on the processing

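The number of genes among the 10 with an adjusted p below 0.05 was 0 in limma and 2 with DESeq2 on the recovered reads (1.49% of all genes it adjusted). With each library left out in turn it ran from 0 to 4, the 4 being Kl, Slc34a1, Slc34a3 and Vdr without UIRI replicate 3, where 5.02% of all rows were called against 0% with all 6 libraries. The replicate block, which the correlations of same-numbered libraries do not back, left it at 0, with 5 of the 10 at an unadjusted p below 0.05 instead of 4, the addition being Cyp24a1. The values of Slc34a1, Slc34a3 and Vdr kept their direction and an unadjusted p below 0.05 in all 14 alternatives, and Kl in 13 of the 14. Leaving out a library turned the sign of genes whose log2 differences lie near 0: Fgfr1 ran from -0.078 to 0.045 (0.018 with UIRI replicate 1 left out, 0.045 with UIRI replicate 2 and 0.033 with UIRI + BA replicate 1), and Slc20a2 from -0.11 to 0.022 (without UIRI replicate 3). The cause of these changes was not tested. Upper quartile scaling moved the median of all genes by -0.02 and changed no call among the 10. Set beside proximal instead of distal convoluted tubule markers, an alternative chosen after seeing the data, the difference of Vdr turned from 0.32 to -0.19 and that of Kl went from 0.51 to 0.0029. Slc34a3 had the fewest reads (18 to 136 per library).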
